A study of Mus musculus with 4 samples.

Results

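The genes described here are 9 heat shock chaperones of the mouse: Hspa1a, Hspa1b, Hspa8, Hsph1, Dnajb1, Dnaja1, Hsp90aa1, Hspb1 and Hspe1. They were taken by symbol from the 32285 features of the series, and all 9 had a row in every library. They were chosen because an earlier look at the same libraries showed heat shock genes, Hspa1a and Hspa1b first, higher in the mutant libraries. The differences between genotypes given here are for that reason a description and not a test. The data are 10x Genomics 3-prime single-cell counts from whole noses of embryos at embryonic day 14.5, with 2 control and 2 mutant libraries. Control libraries are titled WT and their strain is given as C57Bl/6J, whereas the series' design text describes yap flox/flox;taz flox/flox embryos. Mutant libraries are titled Sox10Cre/Yap/Taz cKO and carry Tg(Sox10-cre)1Wdr with floxed Yap and Taz alleles. The design text gives them as Sox10cre;yap flox/WT;taz flox/flox, so that 1 Yap allele would be left unfloxed. The Cre transgene is driven by Sox10, a gene of the neural crest and of glia, so it does not target every cell of the nose. Noses were dissociated with papain and collagenase in the warm and the cells were frozen before loading, which all 4 libraries share. The labels speak of 2 noses per genotype, without saying that each library is 1 nose, and list sequencing providers without tying any library to one. P-values therefore measure the spread between these libraries, and provider and genotype cannot be told apart.

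Chaperones bind proteins that are not folded and let them fold or be handed on. Under heat, oxidation or handling of tissue the transcription factor HSF1 binds heat shock elements, which are alternating inverted repeats of GAA and TTC, and induces Hspa1a, Hspa1b, Hsph1, Dnajb1 and Hspb1 strongly. Hspa8, Hsp90aa1, Dnaja1 and Hspe1 are also made in resting cells. The HSP70 chaperones (Hspa1a, Hspa1b, Hspa8) work in a cycle in which J-domain proteins (Dnajb1, Dnaja1) deliver the client and Hsph1 releases the nucleotide.

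Hspa1a and Hspa1b are near-identical neighbours on chromosome 17, both on the minus strand, with 9.952 kb between them. In GENCODE M21 on GRCm38 they lie at chr17:34969190-34972156 and chr17:34956436-34959238. Their coding sequences agreed at 1919 of 1929 aligned positions, or 99.5%. Their 3′ untranslated regions agreed at only 51.4% of aligned positions, with a longest shared run of 24 bases. Since 3-prime libraries read that end, the 2 genes can be told apart there, and their counts are given both singly and summed. The 250 bases before each start site, from RefSeq on GRCm38.p6, are shown because they are the promoters of the genes with the largest differences, and capitals mark the 8-base element GAANNTTC or TTCNNGAA, searched on both strands.
Hspa1a, chr17:34972157-34972406, minus strand: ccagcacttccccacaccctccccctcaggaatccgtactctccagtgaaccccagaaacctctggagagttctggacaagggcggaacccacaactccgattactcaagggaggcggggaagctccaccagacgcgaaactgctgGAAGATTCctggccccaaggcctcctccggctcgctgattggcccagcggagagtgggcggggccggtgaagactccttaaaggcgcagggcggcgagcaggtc
Hspa1b, chr17:34959239-34959488, minus strand: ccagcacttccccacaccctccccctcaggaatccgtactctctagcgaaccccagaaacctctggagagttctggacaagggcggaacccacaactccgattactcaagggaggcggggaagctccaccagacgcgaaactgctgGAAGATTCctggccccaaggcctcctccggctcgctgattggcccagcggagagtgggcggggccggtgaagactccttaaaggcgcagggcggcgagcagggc
The 2 promoters differed at 3 of 250 bases, at positions -207, -204 and -2 from the start site, and both held the element at -104. Of all 32851 RefSeq promoters of the same table, 12.8% held this element in the 250 bases. At 1 or more listed start sites it was found in 6 of the 7 members with an entry there, and in none of Dnajb1. Hspa8 and Hsp90aa1 had no entry. The other members lie on other chromosomes: Hspa8 at chr9:40800984-40810087, Hsph1 at chr5:149614287-149636376, Dnajb1 at chr8:83608193-83612653, Dnaja1 at chr4:40722150-40737149, Hsp90aa1 at chr12:110690605-110702728, Hspb1 at chr5:135887919-135889563 and Hspe1 at chr1:55088132-55091307. Shorter windows around the elements of the other members follow, with 10 bases on each side.
Hsph1, chr5:149636352-149636379, minus strand: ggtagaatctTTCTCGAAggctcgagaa
Dnaja1, chr4:40722334-40722361, plus strand: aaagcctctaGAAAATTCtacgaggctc
Hspb1, chr5:135887792-135887839, plus strand: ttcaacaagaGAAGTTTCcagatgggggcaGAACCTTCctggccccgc
Hspe1, chr1:55088049-55088086, plus strand: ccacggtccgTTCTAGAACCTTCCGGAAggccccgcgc
Hspe1 alone held the 13-base form, in which NN and a further unit (GAA or TTC, whichever keeps the alternation) follow the 8-base element, which 153 of the 32851 promoters held, or 0.466%. A match is a description of letters and not evidence of binding.

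After a filter on cells (at least 500 genes, at most 10% mitochondrial UMIs) 13739 of 15863 barcodes remained, 2474 to 4195 per library, with median depths of 5282 to 8549 UMIs. A UMI is a tag that marks 1 captured molecule, and levels are given as CPM, the usual scaling of UMIs to a common total of the same cells. Cell types were gated from 6 markers each, and 11 types had at least 20 cells in every library. Outside the gating lists, Ednrb and Egfl8 led in glia by fold over other gated cells, and Pf4 and C1qc in macrophages. Of the floxed genes, Yap1 stood at 65.0 and 65.2 CPM in controls against 56.4 and 56.0 in mutants. Wwtr1, which encodes Taz, stood at 118 and 145 against 123 and 132 CPM, so the groups overlapped. Counts over whole transcripts do not show whether a floxed exon was lost. Library pairs shared 3 to 5 cell barcodes. In sums over a whole nose or class, fewer expressing cells and less RNA per cell cannot be told apart.

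Among cell types the summed Hspa1a and Hspa1b level was highest in macrophages in each of the 4 libraries. Macrophages held 613 and 177 CPM in controls and 1232 and 756 in mutants. Glia followed at a mean of 426 ± 335 CPM (SD, n = 4 libraries), then suprabasal keratinocytes at 375 ± 280 and mural cells, the contractile cells around vessels, at 238 ± 131. Basal keratinocytes stood at 202 ± 174, simple nasal epithelium at 178 ± 60.4, endothelial cells at 78.8 ± 58.9 and neuronal cells at 55.4 ± 45.0 CPM. At the lower end stood osteoblasts at 51.6 ± 47.1, mesenchyme at 46.5 ± 35.3 and chondrocytes at 45.5 ± 37.5 CPM. The top mean was 15.3 times the bottom one. Most neighbours did not keep this order within every library, since 2 of 10 steps had the same direction in all 4 libraries. The step from simple nasal epithelium to endothelial cells, 1 of 10, exceeded the SD. That SD is taken over both genotypes and so also holds the difference between them.

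Each class was then set against all other gated cells of its own library (edgeR quasi-likelihood test with the library as a block, Benjamini-Hochberg over all genes). The pair was higher in macrophages by 3.33 ± 0.15 (log2, SE; adjusted p = 2.1e-10), in suprabasal keratinocytes by 2.02 ± 0.14 (adjusted p = 2.1e-09) and in glia by 1.95 ± 0.14 (adjusted p = 9.5e-31). It was also higher in mural cells (1.37 ± 0.15), simple nasal epithelium (1.05 ± 0.36) and basal keratinocytes (1.02 ± 0.17). Mesenchyme was lower by -2.05 ± 0.15, chondrocytes by -1.20 ± 0.18, neuronal cells by -1.05 ± 0.16 and osteoblasts by -0.99 ± 0.15. The endothelial difference of -0.21 ± 0.19 did not pass (adjusted p = 0.41). Without the library block the call was lost in neuronal cells, simple nasal epithelium, basal keratinocytes, chondrocytes, osteoblasts and mural cells, and in simple nasal epithelium also without control 1 (1.14) or without mutant 2 (1.16).

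**Figure D1:**
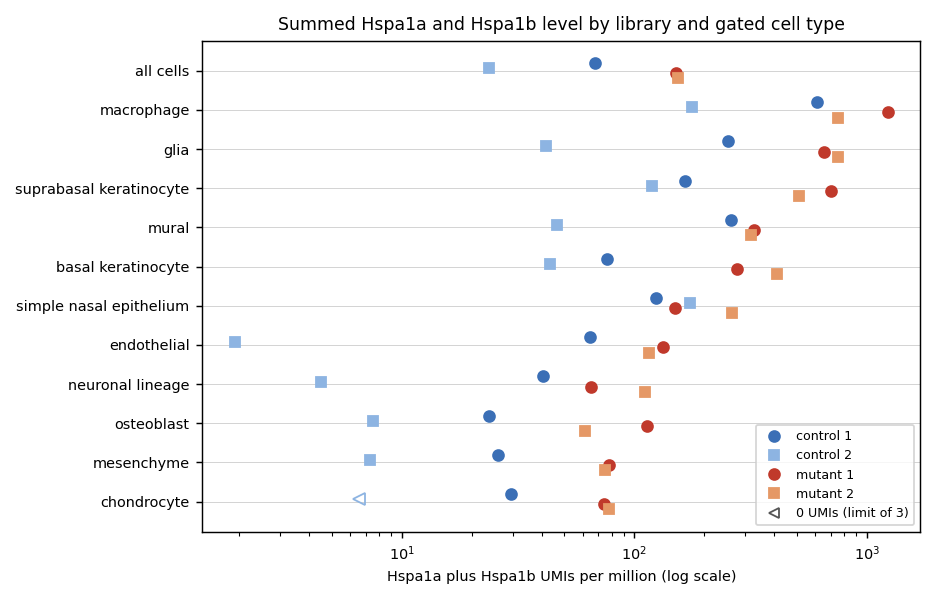
Summed Hspa1a and Hspa1b level in CPM (log axis) for each of 4 libraries in all kept cells and 11 gated cell types, ordered by mean; 1 point is 1 library, and the open triangle is the limit that 0 UMIs allow. Mutant points lie right of both control points in every row but simple nasal epithelium, and control 2 lies left of control 1 in every other row.

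Between genotypes the pair was higher in the mutant libraries in most cell types, while the 2 control libraries also stood far apart. Over all kept cells the sum was 67.8 and 23.7 CPM in control 1 and control 2, while mutant 1 held 151 CPM and mutant 2 154 CPM. The mutant mean was thus 3.33 times the control mean, and control 1 stood at 2.86 times control 2. In 10 of 11 classes both mutants lay above both controls. Among the genes tested, 16.2% to 26.5% per class showed that same order. In all but simple nasal epithelium control 2 was the lowest library. The median ratio of control 1 to control 2 was 3.51 over the classes with a ratio. This includes simple nasal epithelium (0.714) and leaves out chondrocytes, where control 2 held 0 UMIs.

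In basal keratinocytes, the dividing layer of stratified epithelium, the sum was 76.5 and 43.3 CPM in controls and 277 and 412 in mutants. Suprabasal keratinocytes, the differentiating layer above, held 165 and 119 against 703 and 513 CPM. These 2 classes had the least spread between the controls among the classes where the groups did not overlap, and in them the lowest mutant stood at 3.62 and 3.10 times the highest control. The markers of the gates moved with the groups there: the summed suprabasal list stood at 6113 and 4386 CPM in suprabasal controls against 9856 and 7741 in mutants, and the basal list at 3528 and 3651 CPM in basal controls against 3882 and 4417 in mutants. Their part in the result was not tested. In suprabasal keratinocytes the summed macrophage markers stood at 29.0 and 10.4 CPM in controls against 37.2 and 42.3 in mutants, and the immediate early genes were also higher in mutants (values with that list). Neither was tested for its part in the result. Summed macrophage markers stayed at 8.02 to 21.1 CPM in basal keratinocytes, against 7588 CPM or more in macrophages.

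Glia, a class in which Sox10 is normally active, held 253 and 41.8 CPM in controls and 654 and 754 in mutants, from 22 to 45 cells per library. Their summed glial markers were also lowest in control 2, at 3981 CPM against 7170 to 15287 in the other 3 libraries, and the part of this in the result was not tested. Mesenchyme, the largest class with 7978 cells, held 26.0 and 7.30 against 77.6 and 75.1 CPM. Endothelial cells held 64.6 and 1.92 CPM against 133 and 116. Neuronal cells held 40.4 and 4.47 against 65.1 and 112 CPM. Summed markers of simple nasal epithelium within that gate stood at 565 and 103 against 651 and 514 CPM, also lowest in control 2, and their part in the result was not tested. In these 4 classes the controls differed from each other by 3.56 times or more, and control 2 was the lowest library. Over all cells the fitted log2 difference of 1.69 ± 0.44 became 1.14 without control 2 and 2.63 without control 1.

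Chondrocytes held 29.5 CPM in control 1 and 0 UMIs in control 2, which allows up to 6.54 CPM, against 74.5 and 77.9 in mutants. Osteoblasts held 23.8 and 7.55 CPM against 114 and 61.3. In macrophages control 1 stood at 613 CPM beside the 756 CPM of mutant 2. Summed mesenchyme markers within the macrophage gate stood at 209 and 248.97 CPM in controls against 7.51 and 49.4 in mutants, and the macrophage markers at 7588 and 7676 against 8065 and 9246. Their part in the result was not tested. Mural cells held 261 and 46.6 CPM in controls against 328 and 319 in mutants. Only in simple nasal epithelium did the groups overlap, at 125 and 174 CPM in controls and 150 and 263 in mutants. The fitted log2 difference ran from 0.48 ± 0.30 in that class to 2.39 ± 0.25 in basal keratinocytes, with a median of 2.01 over 11 classes.

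In the fit across all genes Hspa1a and Hspa1b passed the adjusted threshold of 0.05 in basal keratinocytes, 2 of 9 members, where 0.0377% of 10620 genes passed (0.0283% with the pair summed). Hspa1a passed in suprabasal keratinocytes, 1 of 9 members, where 0.0124% of 8054 genes passed. That share is Hspa1a itself, the only gene called there. The Hspa1a call in suprabasal keratinocytes was lost with a gate of 2 markers (2.23), with doublets removed (2.61) and at 2000 UMIs per cell (2.42), and the Hspa1b call in basal keratinocytes with a stricter filter on cells (1.88) and at 2000 UMIs per cell (1.57). The other genes called in basal keratinocytes were Elmo1, at 92.5 and 72.2 CPM in controls against 224 and 206 in mutants, and Zfpm2, at 30.5 and 17.6 against 132 and 99.0 (named after their values were seen). No member passed in the other 9 classes or over all cells, although other genes did in endothelial cells (0.0549%, of which 0.011% higher in mutants), mural cells (0.684%) and macrophages (0.292%). Hspa1a had an unadjusted p below 0.05 in 10 of 11 classes and Hspa1b in 9. Since the members were chosen from this contrast, nothing is read from these counts. All 9 members passed the filter on low counts in every class, which a gene near 0 in the controls can do through the mutant libraries alone.

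The 2 genes of the pair did not hold the same ratio in all cell types. Over all cells Hspa1a made up 53.6% and 45.1% of the pair's UMIs in controls and 55.2% and 55.8% in mutants. In macrophages it made up 57.7% and 63.6% (controls) or 69.7% and 66.0% (mutants), and in mural cells 71.5% and 64.7% against 68.8% and 62.4%. The Hspa1a share in basal keratinocytes was 33.3% (95% exact binomial interval 25.9 to 41.4) and 18.5% (6.30 to 38.1) in controls, against 47.7% (43.5 to 52.0) and 51.3% (47.2 to 55.4) in mutants. In suprabasal keratinocytes it was 34.1% and 23.9% against 46.1% and 46.0%. In both keratinocyte classes and in macrophages the controls lay below the mutants. The order was the reverse in osteoblasts, at 80.3% and 71.4% in controls against 69.0% and 54.1% in mutants. It was also reversed in neuronal cells, at 57.6% and 100% against 51.1% and 54.3%, where control 2 held 2 UMIs. Intervals cover counting error only.

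Control 2 stood apart in simple nasal epithelium, with an Hspa1a share of 19.8% (12.4 to 29.2) where the other 3 libraries ran from 53.8% to 55.8%. It held 19 UMIs of Hspa1a and 77 of Hspa1b in 40 cells. The summed basal keratinocyte markers in that gate were 1608 CPM in control 2 and 453 to 874 CPM in the others, and its own markers were lowest there at 2093 against 3335 to 6071 CPM. The part of these cells in the value was not tested.

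**Figure D2:**
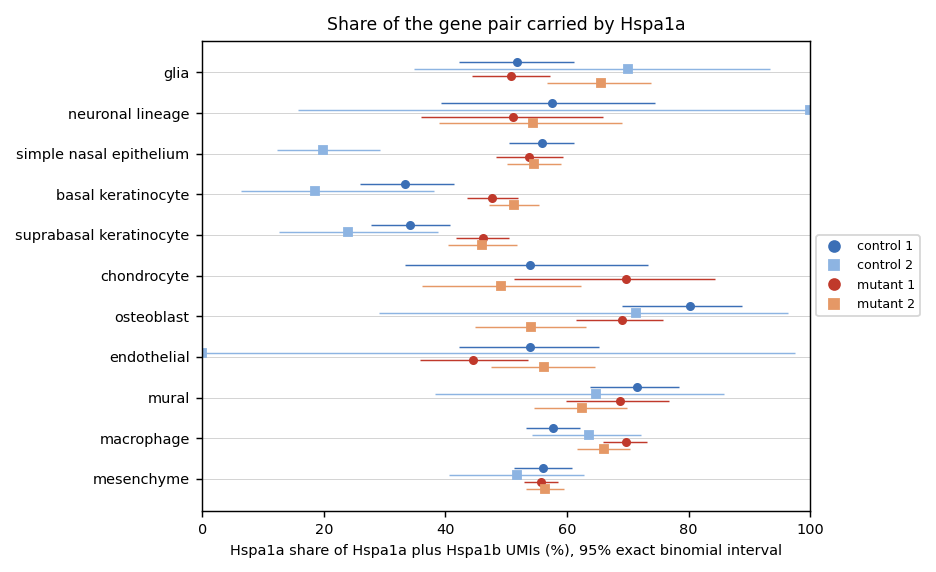
Hspa1a as a percentage of Hspa1a plus Hspa1b UMIs by gated cell type and library, with 95% exact binomial intervals for counting error; no point is drawn where a library had 0 UMIs. Control points of both keratinocyte classes and of macrophages, and control 2 in simple nasal epithelium, lie left of the other libraries. Control points of osteoblasts and neuronal cells lie right of the mutant points.

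Over all kept cells a minority held a UMI of the pair, a share that depends on depth. At the pair's level over all cells, most cells of 2000 UMIs would hold 0 UMIs of it even if all expressed it alike. The shares therefore do not show how many cells expressed the pair. With every cell thinned to 2000 UMIs, 7.97% and 3.30% of control cells and 15.0% and 14.0% of mutant cells held at least 1 UMI of the pair. Unthinned, the shares were 17.5%, 8.33%, 29.6% and 23.6%. The difference of the thinned means was 8.85 percentage points, with p = 0.33 in an exact two-sided permutation test, the smallest value that 2 against 2 libraries allow. In macrophages the thinned shares were 48.6% and 25.0% against 76.7% and 57.0%, and in mesenchyme 4.72% and 1.42% against 10.2% and 8.69%. Mural cells showed 30.5% and 8.57% against 27.6% and 28.8%, so the groups overlapped there. Free RNA was gauged in the 73 skeletal muscle cells, a class too small to test. They held 1 UMI of the pair in control 1, 6 in mutant 1 (22.6 CPM) and 0 in control 2 and mutant 2, which allows up to 7.8 and 15.8 CPM. Those levels lie far below the glial and macrophage ones of the same libraries. In control 2, however, the limit of 7.8 CPM lies above the pair's level in osteoblasts (7.55), mesenchyme (7.30), neuronal cells (4.47) and endothelial cells (1.92), and above the 0 UMIs of chondrocytes. Levels in these 5 classes are not separated from free RNA in that library.

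Cells rich in the pair were more frequent in the mutants over the whole nose. At least 10 UMIs of the pair were found in 1.30% and 0.243% of control cells and in 3.87% and 2.48% of mutant cells. In macrophages the same threshold was met by 24 of 76 and 3 of 64 control cells and by 23 of 46 and 19 of 81 mutant cells. Mutant 1 had the highest share, and control 1 (31.6%) lay above mutant 2 (23.5%), so the groups overlapped. The 1% of cells with the most UMIs of the pair held 29.2% and 47.2% of them in controls and 23.4% and 26.5% in mutants. Without those cells the levels were 49.1 and 12.7 CPM against 118 and 117, and both mutants still lay above both controls (a setting chosen after seeing the data).

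**Figure D3:**
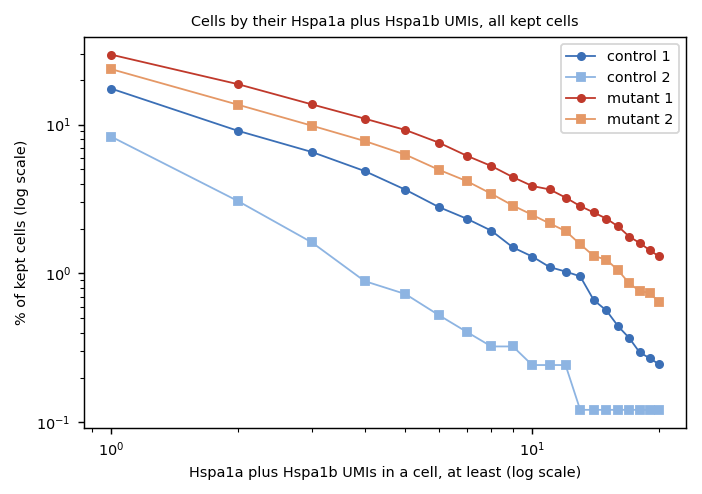
Percentage of all kept cells (log axis) that hold at least the given number of Hspa1a plus Hspa1b UMIs (log axis), 1 line per library, without thinning. Control 2 lies lowest and mutant 1 highest from 1 to 20 UMIs.

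Hsph1 encodes the HSP110 nucleotide exchange factor of the cycle. Over all cells it stood at 35.7 and 33.7 CPM in controls and 51.0 and 47.2 in mutants, a log2 difference of 0.46 ± 0.08. Here the controls were close to each other and the groups did not overlap. Basal keratinocytes held 28.5 and 51.3 CPM against 61.4 and 59.0, and neuronal cells 29.4 and 20.1 against 51.3 and 48.5. In 7 of 11 classes both mutants lay above both controls, and in the other 4 the groups overlapped. Of genes tested, 16.2% to 26.5% per class had the mutants above, and the classes share libraries. Across cell types Hsph1 was higher in macrophages (1.68 ± 0.22, adjusted p = 2.0e-05), glia (1.15 ± 0.19), mural cells (1.01 ± 0.18) and endothelial cells (0.56 ± 0.14), and lower in mesenchyme (-0.62 ± 0.06) and osteoblasts (-0.36 ± 0.11), by edgeR's test against the other gated cells.

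Dnajb1, the J-domain partner of the inducible HSP70 proteins, was a keratinocyte-rich gene here. Suprabasal keratinocytes held 324 and 308 CPM in controls and 461 and 348 in mutants, above every other class in all 4 libraries. Against the other gated cells the log2 difference was 2.93 ± 0.12 (edgeR, adjusted p = 1.7e-12), followed by basal keratinocytes at 1.49 ± 0.10 and simple nasal epithelium at 1.05 ± 0.28. Mesenchyme was lower by -1.53 ± 0.06. Over all cells the groups overlapped, at 64.1 and 52.7 CPM in controls and 56.6 and 58.4 in mutants. Its differences between genotypes had both signs, from -1.15 ± 0.38 in simple nasal epithelium to 1.86 ± 0.52 in glia. In glia these were 13 and 5 UMIs in controls and 49 and 8 in mutants, so mutant 1 made most of the value. In simple nasal epithelium control 2 stood at 265 CPM and the other 3 libraries at 78.7 to 110.

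Dnaja1, a J-domain protein that serves Hspa8, varied little. It stood at 364 and 353 CPM in controls and 366 and 382 in mutants over all cells, with class means from 250 ± 29.9 CPM in chondrocytes to 516 ± 31.6 in mural cells. It was higher than in the other gated cells in endothelial cells (0.56 ± 0.10) and mural cells (0.52 ± 0.09) and lower in chondrocytes (-0.60 ± 0.09), among 5 classes higher and 2 lower. The difference between genotypes lay between -0.30 and 0.26 in every class.

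Hspa8, the HSP70 protein of resting cells, was highest in macrophages and lowest in suprabasal keratinocytes in each library. Macrophages held 1653 and 1356 CPM in controls and 1817 and 1992 in mutants, and suprabasal keratinocytes 656 and 689 against 633 and 711. The log2 differences from the other gated cells were 1.13 ± 0.08 (edgeR, adjusted p = 1.5e-08) and -0.40 ± 0.07 (adjusted p = 0.00026). Between genotypes Hspa8 stood at 899 and 847 against 904 and 959 CPM over all cells. Its class differences ran from -0.13 to 0.36, with the top value in macrophages.

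Hsp90aa1 is the stress-responsive gene of the cytosolic HSP90 chaperone. It was highest in simple nasal epithelium in all 4 libraries, at 1202 and 936 CPM in controls and 1305 and 1189 in mutants, 1.00 ± 0.09 above the other gated cells on the log2 scale (edgeR, adjusted p = 1.4e-05). Macrophages (0.60 ± 0.08), glia (0.49 ± 0.11) and neuronal cells (0.41 ± 0.08) were also higher, and mesenchyme (-0.53 ± 0.04) and suprabasal keratinocytes (-0.31 ± 0.08) lower. Over all cells controls held 592 and 558 CPM and mutants 599 and 624, and class differences between genotypes ran from -0.16 to 0.37.

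Hspb1, the small heat shock protein that binds actin and keratin filaments, had the widest range across cell types of the 9. Suprabasal keratinocytes held 2621 and 2372 CPM in controls and 2875 and 2669 in mutants, which is 4.90 ± 0.08 above the other gated cells on the log2 scale (edgeR, adjusted p = 2.2e-18). Simple nasal epithelium came next, at 567 and 1267 against 553 and 633 CPM, 2.39 ± 0.27 higher. It was lower than in the other gated cells in 8 of 11 classes, most in mesenchyme (-4.01 ± 0.11) and osteoblasts (-3.91 ± 0.16). For these 8 the other gated cells include suprabasal keratinocytes and simple nasal epithelium, so lower does not mean a low level among classes. Mural cells (mean 124 CPM) and endothelial cells (120 CPM) were among the 8, yet ranked 4 and 5 of the 11 class means, above mesenchyme (23.6 CPM). The ratio of the top to the bottom class mean was 237, against 1.73 to 17.5 for the other members.

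Between genotypes Hspb1 over all cells overlapped, at 198 and 128 CPM in controls and 170 and 154 in mutants. Those sums mix classes of very different level. Within mesenchyme the groups did not overlap, at 18.4 and 20.7 CPM against 28.9 and 26.4, a log2 difference of 0.47 ± 0.12. In 7 of 11 classes both mutants lay above both controls, an order that 16.2% to 26.5% of genes tested per class had. Glia gave the largest value, 2.56 ± 0.81, on 12 and 0 UMIs in controls and 56 and 6 in mutants. The 0 UMIs of control 2 allow up to 12.5 CPM.

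Hspe1, the lid of the mitochondrial folding chamber, was the 1 member that stood lower in the mutant libraries. Over all cells it stood at 533 and 594 CPM in controls and 491 and 446 in mutants, a log2 difference of -0.31 ± 0.11. The difference was below 0 in all 11 classes, from -0.12 in neuronal cells to -0.47 in endothelial cells, and in 6 of them both mutants lay below both controls, where 12.2% to 20.1% of genes tested per class showed that order. No class passed the adjusted threshold. The sign turned in chondrocytes thinned to 2000 UMIs (0.27) and, without 1 of the mutants, in neuronal cells (0.05), simple nasal epithelium (0.04), mural cells (0.08) and, at 0.00075, in glia. Across cell types Hspe1 was highest in basal keratinocytes in every library, at 718 and 886 against 711 and 645 CPM, 0.60 ± 0.06 above the other gated cells (edgeR, adjusted p = 8.5e-07). Processed copies of Hspe1 and Hspa8 exist elsewhere in the genome. How reads that fit several places were counted is not given in the sources used here, so both levels carry that uncertainty.

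**Figure D4:**
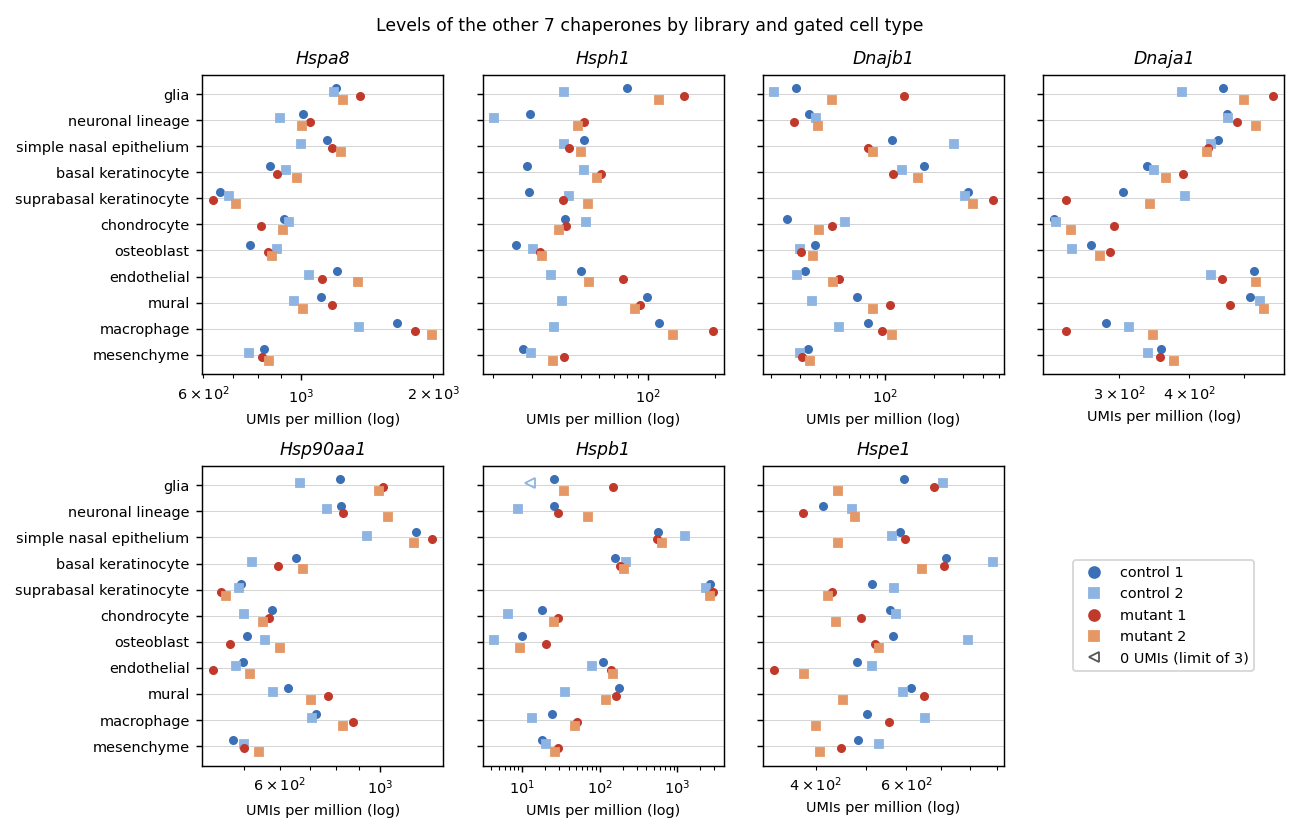
Levels of the other 7 chaperones in CPM (log axes, each with its own range) by gated cell type and library; open triangles are the limit that 0 UMIs allow. Suprabasal keratinocytes stand highest for Hspb1 and Dnajb1, simple nasal epithelium for Hsp90aa1 and macrophages for Hspa8.

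Counted by class, the members called higher than in the other gated cells were 6 of 9 in glia (background 7.34% of genes), 6 of 9 in macrophages (20.1%), 6 of 9 in simple nasal epithelium (21.2%) and 5 of 9 in mural cells (6.87%). Basal and suprabasal keratinocytes had 4 of 9 each (18.7% and 14.8%), endothelial cells 3 (17.6%), neuronal cells 2 (9.69%) and osteoblasts 1 (13.6%). Lower were 8 of 9 in mesenchyme (31.2% of genes), 6 of 9 in osteoblasts (18%), 5 of 9 in chondrocytes (12.6%) and 5 of 9 in neuronal cells (11.7%). The only member not called in mesenchyme was Dnaja1. No member was called higher in mesenchyme or in chondrocytes, against 27.7% and 7.23% of genes.

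Set by genotype, 6 of 9 members lay above both controls in both mutants over all cells, where 24.9% of genes tested did, and Hspe1 lay below. In glia the count was 8 of 9 (background 20.7%), with Hspe1 as the exception, and in neuronal cells and macrophages 6 of 9 (20.4% and 16.2%). Endothelial cells and mesenchyme had 5 of 9 (17.9% and 26.5%). Basal keratinocytes, suprabasal keratinocytes, chondrocytes, osteoblasts and mural cells had 4 of 9 each (19.3%, 21.2%, 18.6%, 22.2% and 21.7%), and simple nasal epithelium 2 of 9 (18.8%). The members were chosen from this contrast, so nothing is read from these counts.

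**Figure D5:**
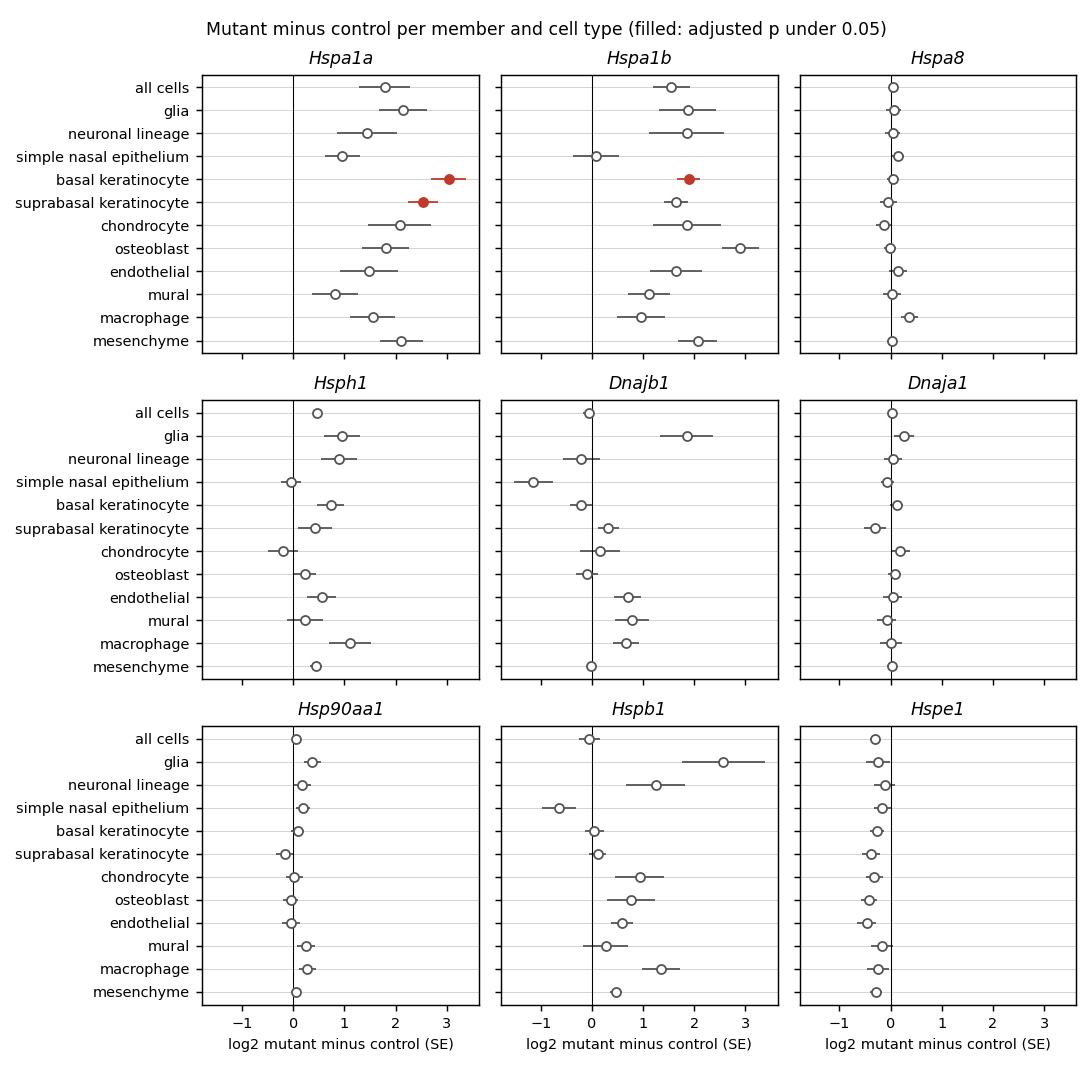
Log2 mutant minus control difference with its SE for each of the 9 members in all kept cells and 11 gated cell types, from edgeR fits on summed counts; filled points passed an adjusted p of 0.05 across all genes. Hspa1a lies right of 0 in every row, Hspe1 left of 0 in every row, and Hspa8, Dnaja1 and Hsp90aa1 lie within 0.4 of 0.

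Whether the genotype difference of the pair itself differed between cell types was tested as a class by genotype term against mesenchyme, with the library as a block. The members were chosen from the genotype contrast and the classes share libraries, so the p-values of this term are a description. In mural cells the term was -1.11 ± 0.24 (edgeR, adjusted p = 0.00099) and in macrophages -0.93 ± 0.22 (adjusted p = 0.046). At the adjusted threshold 1.17% of genes passed in mural cells and 0.808% in macrophages. A negative value is a smaller log2 difference, and so a smaller ratio, than in mesenchyme. In CPM the group means lay further apart in both classes than in mesenchyme. The mesenchyme level of control 2 is not separated from free RNA. The mural value was -0.56 without control 1 and did not pass, and the macrophage one did not pass without control 1 (-0.94), control 2 (-0.94) or mutant 2 (-0.66), nor with RLE size factors (-0.83). In the other 8 classes the difference from mesenchyme lay between -1.69 ± 0.53 (simple nasal epithelium, adjusted p = 0.69) and 0.39 ± 0.26 (basal keratinocytes, adjusted p = 1.0) and did not pass. Glia differed from mesenchyme by 0.04 ± 0.30.

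The genes of 5 further lists, of other chaperones with their pathways and of immediate early genes, were not called between genotypes. The lists were set with earlier results of these data known. Over 12 fits and 5 lists 736 gene tests gave 0 calls with edgeR's test at an adjusted p of 0.05, and 31 had an unadjusted p below 0.05, or 4.21%. Immediate early genes made up 178 of these tests and 20 of the 31. Among all genes 0% to 0.684% per fit were called. An unadjusted p below 0.05 was found in 477 of 11607 genes in simple nasal epithelium and in 665 of 6729 in mural cells, the extremes of the fits. Nothing is therefore read from the list counts. The cytosolic co-chaperones and HSF1 pathway genes had a median log2 difference of 0.02 over all cells, with 11 of 19 above 0, beside a median of 0.00 over all genes. Their most abundant members were Ubb, a ubiquitin gene, at 2066 and 2070 CPM in controls and 2327 and 2507 in mutants, and Hsp90ab1, the constitutive HSP90 gene, at 1940 and 1759 against 1880 and 2164. In mesenchyme this list had a median of 0.11, with 14 of 19 above 0. Its summed level over all cells did not overlap, at 5627 and 5371 CPM in controls against 5818 and 6371 in mutants. Of genes tested, 24.9% had that order. By class the sum overlapped in glia, both keratinocyte classes and endothelial cells, and the mutants stood higher in the others. The part of this sum in the pair's difference was not tested. The 8 CCT chaperonin genes, which fold actin and tubulin, had a median of 0.03, with Cct5 at 228 and 214 against 232 and 239 CPM and Cct8 at 220.2 and 209 against 225 and 221.

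Mitochondrial chaperones had a median of 0.00 over all cells. Hspd1, which encodes the chamber that Hspe1 closes, stood at 263 and 243 CPM in controls and 236 and 257 in mutants, so the groups overlapped, and Grpel1 at 104 and 99.2 against 95.1 and 97.8. The 16 endoplasmic reticulum genes had a median of -0.11 over all cells, with Hsp90b1 at 761 and 761 against 678 and 730.0 CPM and Hspa5 at 449 and 425 against 442 and 467. Immediate early genes, transcription factors and their regulators that rise fast when tissue is handled, had a median of -0.13 over all cells and -0.27 in mesenchyme, where 1 of 15 was above 0. Fos stood at 567 and 821 CPM in controls against 540 and 764 in mutants and Jund at 642 and 681 against 578 and 746. Their summed level was 3372 and 3983 CPM in controls against 3042 and 3980 in mutants, so the groups overlapped over all cells. By class they did not overlap in suprabasal keratinocytes (7513 and 7358 against 8863 and 8581 CPM), glia (2109 and 1617 against 2481 and 2463) and mural cells (3638 and 3627 against 4271 and 4932), where the mutants stood higher as they did for the pair. In the other 8 classes the groups overlapped. The part of these sums in the pair's difference was not tested.

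The same lists were counted across cell types with the test used for the members. Immediate early genes were lower in glia (14 of 15, against 13.2% of all genes tested), neuronal cells (15 of 15, against 11.7%) and mesenchyme (13 of 15, against 31.2%). They were higher in suprabasal keratinocytes (13 of 15, against 14.8%) and simple nasal epithelium (12 of 15, against 21.2%). Endoplasmic reticulum genes were higher in osteoblasts (15 of 16, against 13.6%), where the pair was low, and lower in suprabasal keratinocytes (10 of 16, against 22.5%), where it was high. In macrophages 4 of 19 cytosolic co-chaperone genes were higher and 5 lower, near the 20.1% and 31.1% of all genes tested, so nothing is read from these 2 counts.

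Over the 44 sums of library and class, the 5 genes whose log2(CPM + 10) was most like that of the pair, among 7251 genes, were Zfand5 (Pearson r = 0.79), Capg (0.75), Scp2 (0.73), Txnip (0.72) and Ier5 (0.70). The sums share libraries and cells, so r is a description. Of the members, Hsph1 had r = 0.74 with the pair, Dnajb1 0.56, Hspb1 0.47, Hspa8 0.42, Hsp90aa1 0.37, Dnaja1 0.14 and Hspe1 -0.12. Zfand5, a zinc finger protein linked to the proteasome, stood over all cells at 183 and 157 CPM in controls against 215 and 219 in mutants. Ier5, an early response gene known to act on HSF1, stood at 52.0 and 39.7 against 56.6 and 51.4 CPM. Txnip had its lowest value in control 2 as well, at 58.1 CPM against 102 to 126 in the other 3 libraries.

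Genes near the pair on chromosome 17 were also looked at, in a window chosen after seeing the data. Of the other genes within 500 kb of the pair, 49 were tested over all cells, and none passed edgeR's test at an adjusted p of 0.05. Of all 18080 genes tested there 0 passed, so nothing is read from that count. The log2 differences of these neighbours ran from -0.46 to 0.66 with a median of 0.05. All lay below the 1.79 ± 0.50 of Hspa1a and the 1.55 ± 0.36 of Hspa1b. In basal keratinocytes 26 neighbours ran from -0.63 to 0.60, against 3.04 ± 0.34 for Hspa1a and 1.89 ± 0.22 for Hspa1b.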

How the data were processed

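The deposited values are raw UMI counts per gene and barcode. The authors made them with Cell Ranger, 8.0.1 per the file headers, whereas the submitters' processing notes name Cell Ranger 4, Seurat 4.3.0 and mm10. How multi-mapped reads were treated is not given in the sources used here. The filter on cells required at least 500 genes and no more than 10% mitochondrial UMIs. A cell was gated when it had at least 3 of 6 markers of a list and more than of any other of the 14 lists, the suprabasal before the basal list, and mesenchyme last, which left 11406 gated, 2219 ungated and 114 tied cells. Scrublet's own threshold marked 2 to 9 cells per library and was not used; tied cells were left out, and removal of the highest-scoring cells was an alternative. Sums of counts over each class in each library were fitted with edgeR 4.0.16 (quasi-likelihood, TMM, filterByExpr, Benjamini-Hochberg over all genes). The SE beside an edgeR log2 difference is its absolute value divided by the square root of the quasi-likelihood F statistic. DESeq2 1.42.0 was an alternative. The fits were also run on simulated counts in which every gene had the same assumed spread between libraries. That run does not cover the wide spread of the pair between the controls. Gene positions come from GENCODE M21 and promoters from RefSeq. Members, lists and tests were chosen with earlier results of these data known. Genes named beyond the members were the list genes called between genotypes, or else the 2 most abundant of a list, and the 5 most like the pair. Besides this rule, Yap1 and Wwtr1 were named as the targeted genes and Ednrb, Egfl8, Pf4 and C1qc as leaders of 2 gates, and Elmo1 and Zfpm2 after their values were seen.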

Additional observations from a re-analysis of the deposited data

Results flagged for a closer look

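The class by genotype terms of the pair stood out in 2 classes. There the log2 difference between genotypes, set against that in mesenchyme, passed edgeR's test with Benjamini-Hochberg adjustment over all genes. The members were chosen from the genotype contrast, so these p-values are a description. The mesenchyme level of control 2 is also not separated from free RNA. In mural cells the term was -1.25 ± 0.29 for Hspa1a (SE, adjusted p = 0.0034) and -1.11 ± 0.24 for the sum of both genes (adjusted p = 0.00099). In macrophages it was -1.21 ± 0.27 for Hspa1b (adjusted p = 0.033) and -0.93 ± 0.22 for the sum (adjusted p = 0.046). Hspa1a in macrophages and Hspa1b in mural cells did not pass. Without 1 library the term of the sum ran from -1.28 to -0.56 in mural cells and from -1.20 to -0.66 in macrophages. In both classes both mutants still lay above both controls for the sum. Groups of 2 libraries are too small to look for a single library far from the others.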

How the results depend on the processing

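The summed Hspa1a and Hspa1b difference between genotypes was above 0 in all 155 alternative fits over all cells and 11 classes, and past the threshold in 53. Without the filter on low counts it also passed in glia (2.05), neuronal cells (1.66), chondrocytes (2.00), osteoblasts (2.13), endothelial cells (1.61), mural cells (0.91), macrophages (1.35) and mesenchyme (2.11). In suprabasal keratinocytes it no longer passed with a gate of 2 markers (1.80), with doublets removed (2.08) or thinned to 2000 UMIs (1.86). The cause was not tested. With the replicate block it passed in glia (2.25), osteoblasts (2.37), endothelial cells (1.93), mural cells (1.18), macrophages (1.54) and mesenchyme (2.27). Nothing in the labels says that the replicate numbers pair libraries. Same-numbered libraries deviated together with correlations of -0.03 to 0.12, which with 2 libraries a group cannot show whether they pair. Leaving out 1 library gave 1.14 to 2.63 over all cells, 1.40 to 4.00 in glia, 1.01 to 4.11 in neuronal cells, 0.01 to 0.82 in simple nasal epithelium, 2.09 to 2.93 in basal and 1.75 to 2.33 in suprabasal keratinocytes, 1.33 to 8.42 in chondrocytes, 1.68 to 3.42 in osteoblasts, 0.93 to 5.94 in endothelial cells, 0.25 to 2.76 in mural cells, 0.72 to 2.52 in macrophages and 1.52 to 3.34 in mesenchyme. The lone library of a group is then assumed to vary like the other group.

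Member calls between genotypes summed over 11 classes were 3, against 26 without the filter, 15 with the replicate block, 1 when thinned and 6 to 30 without 1 library. Genes called in basal keratinocytes were 4, against 11 with DESeq2, 123 without the filter, 30 with the replicate block and 1 when thinned. In suprabasal keratinocytes they were 1, against 2, 146, 8 and 0.

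Of 77 calls between cell types 76 were kept with RLE size factors, 53 without the library block, 58 when thinned and 67 to 75 without 1 library, and 1 of 539 values turned, that of Hspb1 in mural cells when thinned (0.068). The sum lost its call without the library block in neuronal cells (-0.96), simple nasal epithelium (0.88), basal keratinocytes (1.25), chondrocytes (-1.11), osteoblasts (-0.85) and mural cells (1.36), and without 1 library it ran from 0.56 to 1.47 in simple nasal epithelium. The class by genotype term in macrophages was -0.83 with RLE size factors. Without 1 library the terms were -0.15 to 0.67 in glia, -0.69 to 0.80 in neuronal cells, -3.09 to -0.82 in simple nasal epithelium, -0.41 to 0.67 in basal and -0.98 to 0.30 in suprabasal keratinocytes, -0.19 to 8.75 in chondrocytes, -0.18 to 0.62 in osteoblasts, -0.58 to 2.78 in endothelial cells, -1.28 to -0.56 in mural cells and -1.20 to -0.66 in macrophages. The difference in shares of cells turned when thinned to 1000 UMIs in neuronal cells (-0.56 percentage points) and simple nasal epithelium (-0.18). In the thinned chondrocyte fit the pair fell under the filter on low counts and gave no value. With 2 libraries a group, exact permutation over libraries cannot go below p = 0.33.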
